A study of Homo sapiens with 4 samples.

Results

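The genes described here are the 10 genes of polyamine synthesis, control and breakdown in KBM5 cells, a human BCR-ABL-positive line from a chronic myeloid leukemia. They were taken by gene name from the deposited expression table (ODC1, AMD1, SRM, SMS, OAZ1, OAZ2, AZIN1, SAT1, SMOX and PAOX), and all 10 were found among its 50868 genes. The libraries were IM-DSF (both agents), IM (a single agent), DSF (a single agent) and CTR (untreated), with 1 library per group. IM and DSF are read as imatinib, an inhibitor of the BCR-ABL kinase, and disulfiram, a drug known for inhibiting aldehyde dehydrogenase. All 4 libraries come from the same cell line, the labels give no dose or duration, and the title of the series names the combined targeting of GPX4 and BCR-ABL. With 1 library per group no difference below has a replicate check or a p-value, and a line grown in culture is a model of 1 patient's leukemia only.

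Polyamines (putrescine, spermidine and spermine) are small positively charged molecules that bind RNA and DNA and that growing cells need. Ornithine decarboxylase (ODC1) makes putrescine in the committed step, AMD1 supplies the aminopropyl donor, and spermidine synthase (SRM) and spermine synthase (SMS) add the aminopropyl groups. Antizymes (OAZ1, OAZ2) bind ornithine decarboxylase and send it to the proteasome, and the antizyme inhibitor AZIN1 traps antizyme. SAT1 acetylates spermidine and spermine, PAOX oxidizes the acetylated forms, and SMOX oxidizes spermine directly, which releases hydrogen peroxide. ODC1 is a textbook transcriptional target of MYC, which binds CACGTG (the E-box), and SAT1 has been described in other cells as a p53 target linked to lipid peroxidation.

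For orientation, the promoter windows of ODC1, SRM and SAT1, the genes with the largest differences on each side of the pathway, are shown 5′ to 3′ on the gene's own strand, from 250 bases before to 50 bases after a RefSeq start site (GRCh38.p14). Capitals mark the E-box CACGTG in ODC1 and SRM. In SAT1 they mark the CCAAT box, which on the other strand reads ATTGG here.
ODC1, chr2:10447963-10448262, minus strand: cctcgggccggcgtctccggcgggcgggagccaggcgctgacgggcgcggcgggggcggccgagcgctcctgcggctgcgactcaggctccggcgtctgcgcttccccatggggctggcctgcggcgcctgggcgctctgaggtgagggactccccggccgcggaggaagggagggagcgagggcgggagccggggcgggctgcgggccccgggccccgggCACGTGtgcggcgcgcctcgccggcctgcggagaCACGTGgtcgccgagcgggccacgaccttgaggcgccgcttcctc
SRM, chr1:11059969-11060268, minus strand: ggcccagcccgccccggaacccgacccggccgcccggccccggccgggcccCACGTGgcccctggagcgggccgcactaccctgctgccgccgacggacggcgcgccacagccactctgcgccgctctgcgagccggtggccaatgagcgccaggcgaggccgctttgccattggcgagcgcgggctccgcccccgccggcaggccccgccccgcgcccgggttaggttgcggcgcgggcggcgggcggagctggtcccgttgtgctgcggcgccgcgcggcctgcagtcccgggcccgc
SAT1, chrX:23782923-23783222, plus strand: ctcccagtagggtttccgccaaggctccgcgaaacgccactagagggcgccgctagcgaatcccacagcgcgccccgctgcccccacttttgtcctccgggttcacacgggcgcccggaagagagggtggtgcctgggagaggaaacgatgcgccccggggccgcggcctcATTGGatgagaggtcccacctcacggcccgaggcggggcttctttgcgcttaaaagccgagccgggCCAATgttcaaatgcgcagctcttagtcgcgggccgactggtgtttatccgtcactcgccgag
The motifs were chosen after the windows were seen, and both strands were searched for each. The GC box, spelled GGGCGG, was searched as well. The marked motifs do not overlap each other. The E-box was found in 7.26%, the CCAAT box in 34.6% and the GC box in 45.0% of all 35116 windows of this length. In ODC1 the E-boxes lie 29 bases before and 5 bases after this start, inside an intron of 2 of its 4 GENCODE 29 transcripts and in an exon of none. The other ODC1 window held 0 E-boxes and 6 GC boxes. SRM had 1 E-box, 199 bases before its start. SAT1 held a CCAAT box 79 and 13 bases before its start, 0 E-boxes and 0 GC boxes. CCAAT boxes are not particular to it: SRM and OAZ1 held 2 each, SMS 1 and an AMD1 window 1, unmarked where the window is printed. GC boxes numbered 6 in the SRM window and 4 in the printed ODC1 window. SMS, AMD1, OAZ1 and OAZ2 windows held 0 E-boxes, and AZIN1, SMOX and PAOX had no matching window. A match is a stretch of letters and says nothing on binding in these cells.

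The values are deposited FPKM, that is, fragments counted on a gene divided by its length in kilobases and by the depth of the library. The denominators recovered from them were 12.4 M (IM-DSF), 15.8 M (IM), 14.7 M (DSF) and 14.5 M (CTR) fragments, where M is 1e+06, and 10677 to 11238 genes per library reached 1 FPKM. The cell label was checked on 7 genes of myeloid progenitors, none listed at 0, which summed to 2053 FPKM in IM-DSF, 2285 in IM, 1893 in DSF and 1420 in CTR. MPO, a defining enzyme of these cells, had only 2.49 to 3.49 FPKM, while the protease ELANE had 619, 590, 526 and 372 FPKM in IM-DSF, IM, DSF and CTR. Markers of other cells were near 0. The 5 lymphoid markers summed to 0.404 to 0.485 FPKM with 3 listed at 0 in all libraries, the 4 erythroid markers to at most 0.0968 (2 at 0), the 3 megakaryocyte markers to 0.182 to 0.486 (1 at 0), the 3 epithelial markers to at most 0.0886 (1 at 0) and the 3 fibroblast markers to at most 0.159 (0 at 0). A ratio of FPKM is given with a 95% interval from the fragment numbers (exact conditional binomial). Such an interval holds counting error alone. It leaves out culture-to-culture spread, and it is too narrow wherever PCR copied a fragment.

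SAT1, the acetyltransferase that starts polyamine breakdown, was the member that stood out, and it was highest with both agents. SAT1 (ENSG00000130066, chrX:23783173-23786226, plus strand, GRCh38.p14) had 12.8 FPKM in IM-DSF (931 fragments), 7.27 in IM (671), 4.58 in DSF (393) and 4.23 in CTR (358). Its level was thus highest in IM-DSF and next highest in IM, while DSF and CTR lay side by side. The ratio to CTR was 3.03 in IM-DSF (95% interval 2.68 to 3.43), 1.72 in IM (1.51 to 1.96) and 1.08 in DSF (0.936 to 1.25), and the last interval includes 1. These ratios share the CTR library. IM-DSF was also 1.76 times IM (1.59 to 1.95) and 2.80 times DSF (2.49 to 3.16).

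Genes that averaged 1 FPKM or more over the 4 libraries (11004, among them 9 of the 10 members) were then ranked by their difference in log2(FPKM + 1), and the size rule asks for 1 log2 unit or more. SAT1 was the 1 member past it in IM-DSF against CTR, at 1.40 log2 units and rank 78 from the top, where 4.28% of all genes passed (2.54% higher). It was also the 1 member past it in IM-DSF against DSF, at 1.31 log2 units and rank 37, where 2.37% of all genes passed (1.33% higher). Both contrasts use the IM-DSF library. In IM against CTR its difference was 0.66 (rank 553), in DSF against CTR 0.09 (rank 3551) and in IM-DSF against IM 0.74 (rank 142). Over all genes, 2.43% passed in IM against CTR (1.54% higher, 0.891% lower), 1.12% in DSF against CTR (0.545% higher, 0.573% lower) and 1.74% in IM-DSF against IM (0.7% higher, 1.04% lower), and 0 members did in these 3 contrasts.

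GENCODE 29 lists 9 SAT1 transcripts, of which 4 are protein-coding and 5 are not, and gene-level values do not separate them. SAT1 is known for a transcript with an extra exon that is degraded, so more fragments per gene need not mean more enzyme. The receptor CSF3R, one of the myeloid markers, followed the same order across libraries, with 22.1 FPKM in IM-DSF, 18.0 in IM, 9.497 in DSF and 5.003 in CTR. ELANE and AZU1 did so too, and the other 4 markers (PRTN3, MPO, CEBPA and CD33) did not, so 3 of 7 had the SAT1 order. The part of the myeloid markers in the SAT1 difference was not tested, and in bulk RNA fewer cells of a type and less RNA per cell cannot be told apart.

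**Figure D1:**
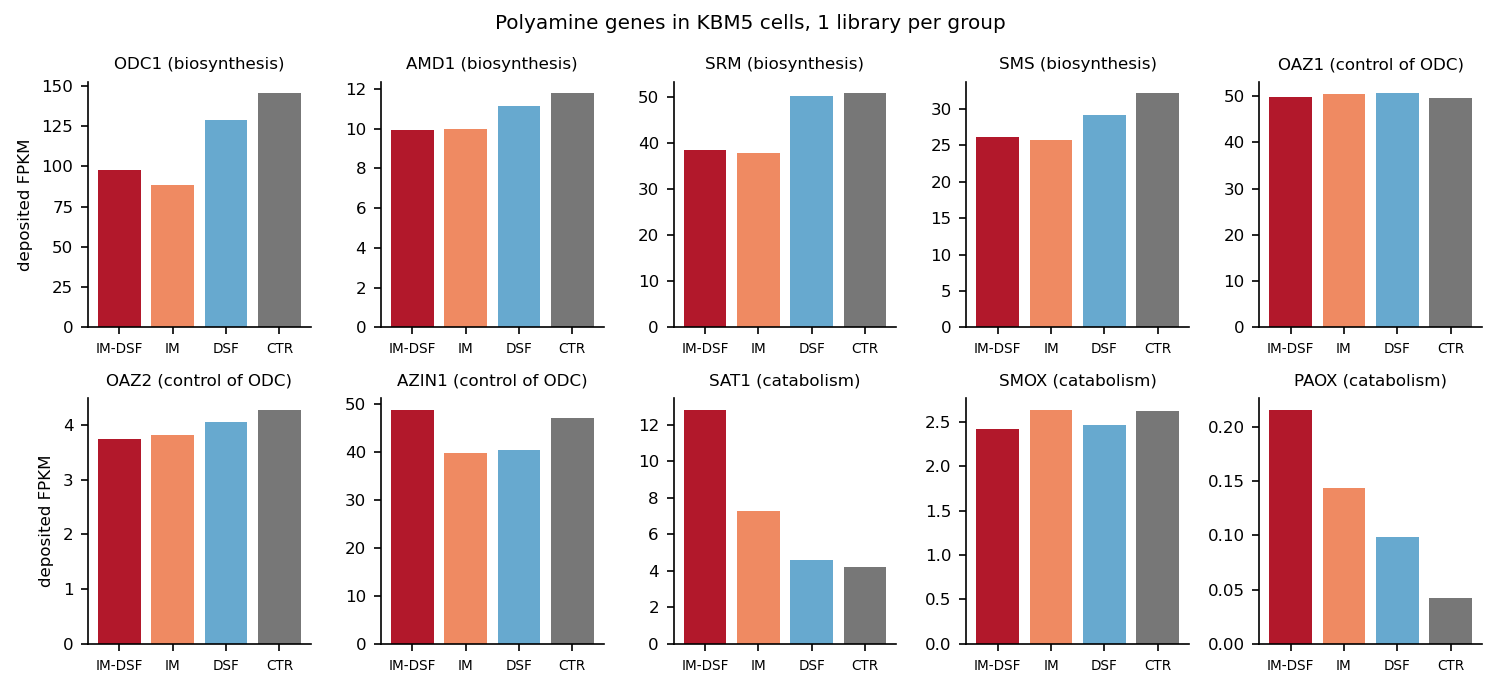
Deposited FPKM (vertical axis, starting at 0, a separate scale per gene) of the 10 polyamine genes in IM-DSF, IM, DSF and CTR, 1 bar per library and no error bar because there is 1 library per group. SAT1 is tallest in IM-DSF (12.8 FPKM against 4.23 in CTR), ODC1 is tallest in CTR (145 FPKM against 98.0 in IM-DSF), and OAZ1 is nearly level.

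The enzymes of synthesis lay on the other side. All 4 were lower in IM-DSF and in IM than in CTR, by counting intervals that exclude 1, and none reached the size rule. ODC1 (ENSG00000115758, chr2:10439968-10448504, minus strand), the committed enzyme, had 98.0 FPKM in IM-DSF (4580 fragments), 88.6 in IM (5264), 129 in DSF (7108) and 145 in CTR (7919). Both libraries with IM were below both without it. Its ratio to CTR was 0.674 in IM-DSF (0.650 to 0.699), 0.610 in IM (0.589 to 0.632) and 0.886 in DSF (0.857 to 0.914). ODC1 overlaps SNORA80B on the same strand, so how reads were divided there is uncertain.

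SRM (ENSG00000116649, chr1:11054584-11060024, minus strand), which makes spermidine, had 38.6 FPKM in IM-DSF (1609 fragments), 38.0 in IM (2016), 50.2 in DSF (2477) and 50.9 in CTR (2478). Its values fell into a lower pair with IM and a higher pair without. The ratio to CTR was 0.757 in IM-DSF (0.710 to 0.806), 0.746 in IM (0.703 to 0.792) and 0.986 in DSF (0.932 to 1.04). SMS (ENSG00000102172, chrX:21940573-21994835, plus strand), which makes spermine, had 26.2 FPKM in IM-DSF (899 fragments), 25.7 in IM (1123), 29.1 in DSF (1182) and 32.2 in CTR (1288). It followed the same grouping with smaller differences, at 0.814 times CTR in IM-DSF (0.746 to 0.887), 0.800 in IM (0.738 to 0.867) and 0.905 in DSF (0.836 to 0.980).

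AMD1 (ENSG00000123505, chr6:110814621-110895713, plus strand), which makes decarboxylated S-adenosylmethionine, had 9.93 FPKM in IM-DSF (2045 fragments), 9.97 in IM (2609), 11.1 in DSF (2704) and 11.8 in CTR (2827). Again IM-DSF and IM were alike and below the others. The ratio to CTR was 0.843 in IM-DSF (0.796 to 0.893), 0.847 in IM (0.803 to 0.893) and 0.944 in DSF (0.895 to 0.995). Its 4 annotated pseudogenes summed to 0.404, 0.318, 0.0685 and 0.208 FPKM in IM-DSF, IM, DSF and CTR, against about 10 for the gene itself, and those of SRM (3) and OAZ1 (1) were listed at 0.

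Counting intervals exclude 1 for many genes at this depth, so the member counts are read against all genes. The median log2 difference of the 4 synthesis genes was −0.34 in IM-DSF against CTR and −0.36 in IM against CTR, where the medians of all genes tested were 0.02 and 0.02. Among genes averaging at least 5 FPKM, as these 4 do, the medians were −0.08 and −0.04. In IM-DSF against CTR the interval excluded 1 for 66.7% of the 9552 genes with recovered fragments (33.9% higher, 32.8% lower), and of the 9 members 1 was higher, 5 were lower and 3 included 1. In IM against CTR it did so for 63.1% (33.2% higher, 29.9% lower), with 1 member higher, 6 lower and 2 including 1. In DSF against CTR it did so for 44.7% (22.2% higher, 22.5% lower), with 0 members higher, 4 lower and 5 including 1. These 3 contrasts share CTR and are not independent.

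The contrasts between treated libraries placed the synthesis genes differently. In IM-DSF against DSF all 4 were lower, with ratios of 0.761 for ODC1 (0.734 to 0.790), 0.768 for SRM (0.720 to 0.818), 0.894 for AMD1 (0.843 to 0.947) and 0.899 for SMS (0.823 to 0.981). The interval excluded 1 for 60.7% of all genes there (30.8% higher, 29.9% lower), and 2 members were higher, 4 lower and 3 included 1. In IM-DSF against IM, ODC1 was slightly higher at 1.11 (1.06 to 1.15), while SRM, SMS and AMD1 had ratios of 1.014, 1.02 and 0.996 that all include 1 and whose direction turned under another scaling. There the interval excluded 1 for 44.9% of all genes (21.4% higher, 23.5% lower), and 3 members (SAT1, AZIN1 and ODC1) were higher, 0 lower and 6 included 1.

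**Figure D2:**
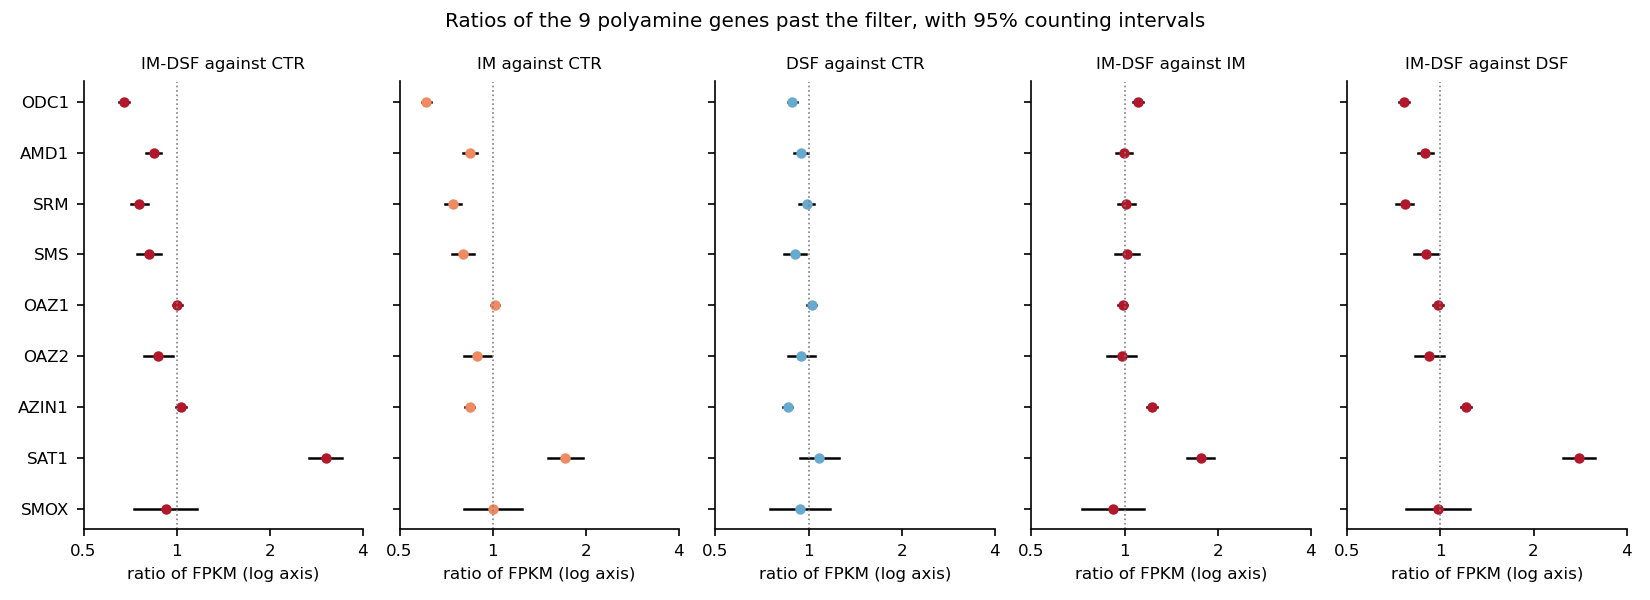
Ratio of FPKM (log axis) with its 95% counting interval for the 9 members past the filter, 1 panel per contrast, genes ordered by role from synthesis to breakdown. SAT1 lies to the right in 4 panels (3.03 in IM-DSF against CTR) and includes 1 in DSF against CTR, the synthesis genes lie to the left in the panels of IM-DSF and IM against CTR, and OAZ1 stays on the line.

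The genes that control ornithine decarboxylase differed little. Antizyme is made only when the ribosome shifts frame at a TCCTGA stop site, a step that polyamines promote and that gene-level RNA does not show. The site is printed here in capitals with its flanks, read from a GENCODE 29 transcript of each gene that is annotated as retaining an intron.
OAZ1, plus strand: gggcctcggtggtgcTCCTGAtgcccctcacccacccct
OAZ2, minus strand: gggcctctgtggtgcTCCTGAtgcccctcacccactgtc
The stretches shared 34 of 39 bases. OAZ1 (ENSG00000104904, chr19:2269509-2273490) had 49.7 FPKM in IM-DSF (6018 fragments), 50.4 in IM (7751), 50.6 in DSF (7241) and 49.5 in CTR (6983). Its highest value was 1.02 times its lowest, and all 5 intervals include 1, as in IM-DSF against CTR (1.005, 0.971 to 1.04). OAZ1 overlaps AC005258.1 on the same strand and JSRP1 on the opposite one.

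OAZ2 (ENSG00000180304, chr15:64687573-64703281, minus strand), the less abundant antizyme, had 3.74 FPKM in IM-DSF (582 fragments), 3.82 in IM (756), 4.06 in DSF (747) and 4.28 in CTR (777). The order of libraries was that of AMD1, in small steps, with 0.873 times CTR in IM-DSF (0.783 to 0.974), 0.893 in IM (0.807 to 0.988) and 0.948 in DSF (0.857 to 1.05). AZIN1 (ENSG00000155096, chr8:102826357-102893864, minus strand), which frees ornithine decarboxylase from antizyme, had 48.8 FPKM in IM-DSF (5538 fragments), 39.7 in IM (5728), 40.3 in DSF (5405) and 47.2 in CTR (6238). Each single agent was low, and the combination lay near CTR. Its ratio to CTR was 1.03 in IM-DSF (0.998 to 1.07, a direction that turned under another scaling), 0.843 in IM (0.813 to 0.873) and 0.855 in DSF (0.824 to 0.887). IM-DSF was 1.23 times IM (1.18 to 1.27) and 1.21 times DSF (1.17 to 1.26). AZIN1 has 3 genes on the opposite strand, among them AZIN1-AS1, and whether counting used strand is not given in the sources used here.

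Of the oxidases, SMOX (ENSG00000088826, chr20:4120980-4187747, plus strand) had 2.42 FPKM in IM-DSF (132 fragments), 2.64 in IM (183), 2.46 in DSF (159) and 2.62 in CTR (167). No order among the 4 libraries was detectable at this depth, and the value of 0.921 for IM-DSF relative to CTR has an interval of 0.728 to 1.16. PAOX (ENSG00000148832, chr10:133379234-133391694, plus strand) fell under the filter, with 0.215 FPKM in IM-DSF, 0.143 in IM, 0.0982 in DSF and 0.0426 in CTR. These rest on 13, 11, 7 and 3 fragments under a length fitted to the values, as for AMD1. The smallest length that gave whole fragments was taken, so the true numbers may be larger by a whole factor. The intervals of both genes are uncertain for that reason. IM-DSF stood at 5.05 times CTR (1.39 to 27.6), and the intervals of the other 4 contrasts include 1. PAOX overlaps AL360181.3 on the same strand. SAT1 was therefore the 1 gene of breakdown with a difference beyond counting error among those past the filter.

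Levels between genes depend on the length used. The deposited values divide fragments by the summed length of a gene's distinct exons, overlapping exons counted repeatedly, which is 1.27 (ODC1) to 2.83 (OAZ1) times the merged exon length in the members and 2.34 times in SAT1. Per merged exon length, ODC1 stood at 124 depth-scaled fragments per kilobase in IM-DSF, 112 in IM, 163 in DSF and 184 in CTR. OAZ1 stood at 141, 143, 143 and 140 in the same libraries. OAZ1 was thus the most abundant member in IM-DSF and IM, and ODC1 in DSF and CTR, whereas on the deposited scale ODC1 came first in all 4. The ratio of ODC1 to OAZ1 on the merged scale was 0.881 in IM-DSF, 0.786 in IM, 1.14 in DSF and 1.31 in CTR.

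Below these, on the merged scale, SRM ranged over 67.2 to 90.0, AZIN1 over 56.4 to 69.3, SMS over 32.9 to 41.1 and AMD1 over 23.4 to 27.7. OAZ2 ranged over 6.10 to 6.98, SMOX over 3.60 to 3.93 and PAOX over 0.0908 to 0.459. SAT1 moved through this order, with 29.95 in IM-DSF, 17.0 in IM, 10.7 in DSF and 9.88 in CTR, so it lay above AMD1 in IM-DSF and below it elsewhere. For each 100 units of ODC1 on this scale there were 24.2 of SAT1 in IM-DSF, 15.1 in IM, 6.57 in DSF and 5.37 in CTR. Both genes move in that ratio, and no scaling between libraries enters it.

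**Figure D3:**
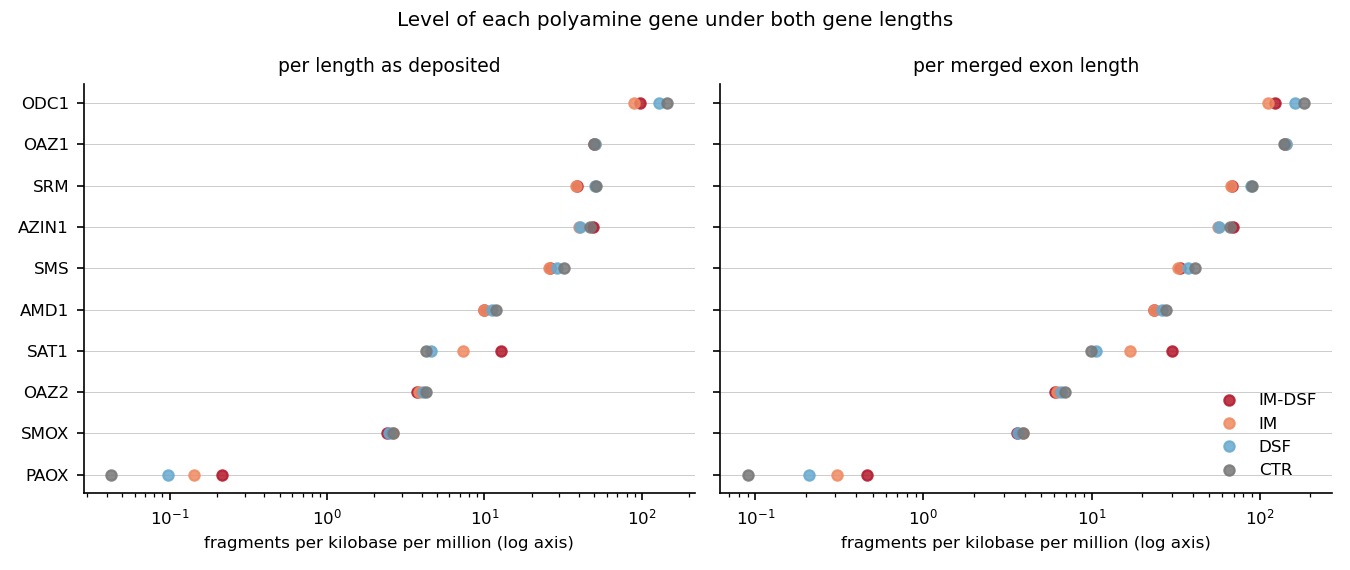
Level of each member (depth-scaled fragments per kilobase, log axis) with the length as deposited (left) and with the merged exon length (right), 1 point per library coloured by group. Most genes keep their 4 points close together, SAT1 spreads to the right with IM-DSF (29.95 against 9.88 in CTR on the merged scale), and the gap between ODC1 and OAZ1 closes on the merged scale.

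The 2 agents form a layout in which the combined difference can be set against the sum of the single ones. For each gene the IM and the DSF differences from CTR, in log2(FPKM + 1), were subtracted from that of the combination to give a departure. It was 0.65 for SAT1, 0.51 for AZIN1, 0.32 for ODC1 and 0.16 for SMS, and within 0.08 of 0 for the other 5 members past the filter. No member reached 1 log2 unit, as 3.06% of all genes did (152 positive, 185 negative), and the central 95% of all genes ran from −0.85 to 0.75. SAT1 and AZIN1 thus lay inside that range. The departure uses all 4 libraries and was not tested, since there are no replicates.

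The genes whose 3 differences from CTR were nearest to those of SAT1, by Euclidean distance over 4 libraries and among 3462 protein-coding genes of at least 5 FPKM without same-strand overlap, were ASAH1, RETN and TREM2. ASAH1, acid ceramidase, lay at a distance of 0.23 log2 units with 27.9 FPKM in IM-DSF, 19.6 in IM, 12.2 in DSF and 10.4 in CTR. RETN, resistin, lay at 0.23 with 49.7, 31.1, 24.2 and 19.3 FPKM in the same libraries. TREM2, a receptor of myeloid cells, lay at 0.26 with 13.5, 8.56, 6.07 and 5.45 FPKM.

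MYC, named because ODC1 is its textbook target, had 0.807 FPKM in IM-DSF (90 fragments), 1.27 in IM (180), 1.34 in DSF (176) and 1.17 in CTR (152). It was lowest in IM-DSF, at 0.690 times CTR (0.526 to 0.902), 0.635 times IM (0.488 to 0.823) and 0.604 times DSF (0.463 to 0.783). In IM, where ODC1 had its lowest value, MYC was 1.09 times CTR with an interval that includes 1 (0.871 to 1.36). MYC RNA and ODC1 RNA therefore did not have the same order of libraries. Whether MYC has a part in the ODC1 difference was not tested, and RNA does not show the MYC protein.

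Around the core pathway, genes of precursor supply, methyl donor and salvage, hypusine formation and transport were listed as well. Of these, 3 of 7, 7 of 9, 4 of 4 and 5 of 11 passed the filter, and 0 passed the size rule in any of the 5 contrasts. Transport held the largest differences. In IM-DSF against CTR 3 of 5 were lower and 2 included 1, with a median of −0.46 log2 units. Over all genes the interval excluded 1 for 66.7%, with 32.8% lower, and the median was 0.02. The share to set beside the 3 lower genes of 5 is thus the 32.8%. With 5 genes, the distance from that share was not tested. SLC7A1, the main arginine importer, had 12.7 FPKM in IM-DSF, 14.5 in IM, 21.2 in DSF and 21.9 in CTR, and was 0.580 times CTR in IM-DSF (0.542 to 0.620). It split by IM as ODC1 and SRM did. SLC3A2, a heavy chain of amino acid transporters, had 6.95, 7.87, 8.91 and 10.9 FPKM in IM-DSF, IM, DSF and CTR, and was 0.635 times CTR in IM-DSF (0.593 to 0.680). ATP13A3, a polyamine-transporting ATPase, had 10.4, 8.59, 10.4 and 14.7 FPKM, lower than CTR in every treated library, at 0.709 in IM-DSF (0.677 to 0.741).

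Hypusine is a modified lysine that is built from spermidine on the translation factor EIF5A. EIF5A had 32.0 FPKM in IM-DSF, 35.4 in IM, 43.6 in DSF and 47.0 in CTR, and was 0.681 times CTR in IM-DSF (0.647 to 0.716). It was lower in each treated library, least in DSF (0.928, 0.888 to 0.971). DHPS, which makes the first step of hypusine, had 4.10, 4.33, 5.08 and 3.47 FPKM, which is 1.18 times CTR in IM-DSF (1.04 to 1.34), while overlapping another gene. DOHH, which completes it, had 3.74, 3.36, 3.93 and 3.99 FPKM and intervals that include 1. The median of the 4 genes was −0.07 log2 units, with 1 higher, 1 lower and 2 including 1 in IM-DSF against CTR, where 33.9% of all genes were higher and 32.8% lower.

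In precursor supply the urea cycle enzymes parted. ASL, which releases arginine, had 5.76 FPKM in IM-DSF, 5.32 in IM, 4.90 in DSF and 3.91 in CTR, and was 1.47 times CTR in IM-DSF (1.27 to 1.70). ASS1, the enzyme before it, had 38.6, 46.3, 54.7 and 52.3 FPKM, which put IM-DSF at 0.739 times CTR (0.6998 to 0.780). OAT, which links ornithine to glutamate, was the third past the filter, at 1.008 times CTR in IM-DSF (0.879 to 1.16), for a list median of 0.01. ARG2, an arginase, was under the filter with 0.131 FPKM in IM-DSF and 0.248 in CTR (5 and 11 fragments).

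The next list joins genes of S-adenosylmethionine synthesis and the methyl cycle (MAT2A, MAT2B and AHCY past the filter) with genes that salvage methylthioadenosine, the by-product of SRM and SMS (MRI1, APIP, ENOPH1 and ADI1). MRI1, an isomerase of the salvage, had 7.79 FPKM in IM-DSF, 7.30 in IM, 6.36 in DSF and 4.48 in CTR, and was 1.74 times CTR in IM-DSF (1.52 to 1.99), with C19orf53 overlapping it. APIP, the next enzyme, had 4.47, 5.87, 6.02 and 6.25 FPKM, with IM-DSF at 0.715 times CTR (0.622 to 0.820). ENOPH1, which follows, had 8.69, 9.10, 10.97 and 11.5 FPKM, with IM-DSF at 0.756 times CTR (0.686 to 0.832). ADI1, a later enzyme, stood at 0.840 times CTR in IM-DSF (0.789 to 0.894). Over the whole list of 7, 2 were higher (MRI1 and MAT2B), 3 lower (the other salvage genes) and 2 included 1, where 33.9% of all genes were higher and 32.8% lower, and the median was −0.06 log2 units.

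The paralogs and other amine enzymes (0 of 6 past the filter) were low on the deposited scale. SAT2, a paralog of SAT1, had 0.858 FPKM in IM-DSF (100 fragments), 0.581 in IM (86), 0.356 in DSF (49) and 0.265 in CTR (36). Its order was that of SAT1, and IM-DSF was 3.24 times CTR (2.19 to 4.88). The deposited values divide SAT2 fragments by 9366 bases, while its merged exon length is 1643. Its low FPKM and its place under the filter therefore rest on the length used, and the size rule was not applied to it. SAT2 overlaps SHBG on the opposite strand. AOC1, an oxidase of putrescine and histamine, had 0.523, 0.405, 0.352 and 0.236 FPKM, with IM-DSF at 2.22 times CTR (1.41 to 3.55). OAZ3, an antizyme of the testis, had 0.150, 0.0453, 0.0390 and 0.0395 FPKM, on 13, 5, 4 and 4 fragments.

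**Figure D4:**
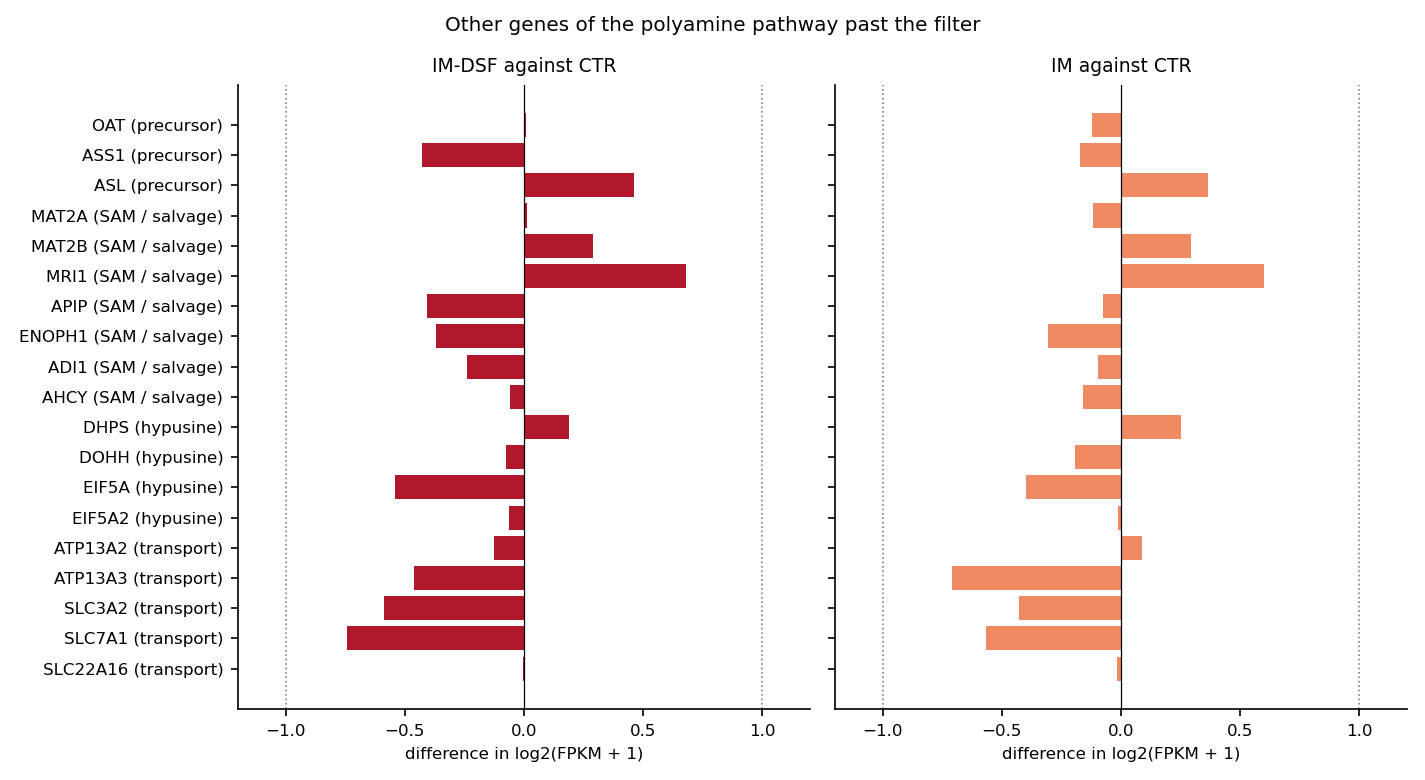
Difference in log2(FPKM + 1) of the 19 other pathway genes past the filter for IM-DSF against CTR (left) and IM against CTR (right), which share the CTR library, with dotted lines at the size rule of 1 log2 unit. No bar reaches a dotted line, and SLC7A1 and SLC3A2 (transport) point to lower values in both panels while MRI1 and ASL point to higher ones.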

How the data were processed

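RNA of KBM5 cells was sequenced after stranded mRNA library preparation, per the labels' protocols. The aligner HISAT2 2.0.4 and the build GRCh38.p14 come from the submitters' processing notes. For the read counter, the annotation, the use of strand and any rescaling, the sources used here name nothing. The authors deposited 1 table of FPKM for 50868 genes in 4 libraries, per the file headers. The 10 members and all gene lists were chosen with earlier results of these data known.

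FPKM times length was a whole number of fragments, within 0.05, for 95.2% to 95.5% of the single-exon genes in each library, which gave the denominators. Their definition is not stated. Among 12693 genes with several exon blocks, 91.6% were whole in all 4 libraries under the summed length of distinct GENCODE 29 exons, against 9.49% under merged exons and 15% under the sum over transcripts. Lengths of AMD1 and PAOX were searched for, because the annotation did not give whole fragments. Intervals are 95% exact conditional binomial intervals of these fragments and cover counting error only. Overlapping genes are uncertain.

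Differences are of log2(FPKM + 1), so low genes appear to change less than they did. They cover the 11004 genes averaging 1 FPKM or more. A gene is called at 1 log2 unit (2-fold on that scale). Named besides the members are genes past this rule in any contrast, up to 3 per list with the largest difference in IM-DSF against CTR, the 3 nearest to SAT1, and MYC; OAT and ADI1 were added after their values were seen. Median-of-ratios, trimmed-mean and TPM scaling, other filters and pseudocounts, pseudogene sums and, chosen after seeing the data, merged exon lengths were alternatives. The calculation was tested on simulated data that held counting error alone, so that test does not cover culture-to-culture spread or copied fragments. Promoters are from RefSeq and matched 7 of 10 members. Python 3.11.15, numpy 2.4.6, scipy 1.17.1, pandas 2.3.3 and matplotlib 3.10.9 were used.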

Additional observations from a re-analysis of the deposited data

Results flagged for a closer look

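DSF went with opposite directions of ODC1 and AZIN1 depending on whether IM was present. ODC1 was 1.11 times IM in IM-DSF and 0.886 times CTR in DSF. AZIN1 was 1.23 times IM in IM-DSF and 0.855 times CTR in DSF. The same held for IM in AZIN1, which was 1.21 times DSF in IM-DSF and 0.843 times CTR in IM. All of these counting intervals exclude 1, but each side is 1 library against 1, and the difference between the effects was not tested.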

How the results depend on the processing

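No paired analysis was possible because each group has 1 library, and for the same reason no replicate could be left out. The number of genes past 1 log2 unit moved with the processing. Under every alternative run, SAT1 was the 1 member called in IM-DSF against CTR and in IM-DSF against DSF. The other filters and the pseudogene sums leave the SAT1 difference itself unchanged, so they do not test its size. In the other contrasts 0 members were called. PAOX, under the filter and so not called, reached 1.14 log2 units in IM-DSF against CTR with a pseudocount of 0.1 (0.22 as reported). In the order IM-DSF, IM and DSF against CTR, then IM-DSF against either single agent (IM before DSF), the reported counts were 471, 267, 123, 191 and 261 genes. They were 894, 600, 309, 355 and 540 with a pseudocount of 0.1, 228, 114, 53, 89 and 122 with a mean of at least 5 FPKM, 1374, 876, 600, 685 and 947 after rescaling to TPM, and 196, 112, 46, 62 and 98 in protein-coding genes without same-strand overlap. The last and the stricter filter leave fewer genes to call; the cause was not tested for the others. Trimmed-mean factors gave 230 higher and 258 lower genes in IM-DSF against CTR (279 and 192 as reported), and 106 higher and 135 lower in IM-DSF against DSF (146 and 115). No scaling moved the median of all genes by over 0.1 log2 units. Across 300 member values under the alternatives, 273 kept within their counting interval and 27 moved. Of the values whose reported interval excludes 1, 0 changed sign. Part of this agreement was fixed in advance. Pseudogene sums could move AMD1 alone, and merged exon lengths leave each ratio as it was and change only the weight of the pseudocount. The SAT1 difference in IM-DSF against CTR ranged over 1.31 to 1.58, and that of ODC1 over −0.67 to −0.56. OAZ1 in all contrasts, AZIN1 in IM-DSF against CTR, AMD1, OAZ2, SMS and SRM in IM-DSF against IM, and SMOX in both IM-DSF against DSF and IM against CTR changed sign under some setting, with intervals that include 1. Depth limits PAOX (3 to 13 fragments) and SMOX (132 to 183).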

Other observations

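MTAP, which cleaves the methylthioadenosine left by spermidine and spermine synthesis, was far under the filter in all 4 libraries, with 0.143 FPKM in IM-DSF, 0.115 in IM, 0.166 in DSF and 0.122 in CTR, on 37, 38, 51 and 37 fragments spread over a gene that overlaps others. Its neighbours on chromosome 9 were looked up after these values were seen. CDKN2A, CDKN2B, DMRTA1 and ELAVL2 were listed at 0 in all 4 libraries. HACD4, on the other side of MTAP, had 2.09, 2.38, 1.65 and 1.26 FPKM in IM-DSF, IM, DSF and CTR, and FOCAD, farther out, had 3.42, 3.59, 4.16 and 4.58 FPKM. The salvage genes MRI1, APIP, ENOPH1 and ADI1 passed the filter, as did SRM and SMS, which make the substrate of MTAP. No DNA data were used here, and why these genes have so few fragments was not tested.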
